A study of Mus musculus with 10 samples.

Results

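Microglia labelled Rab7 deltaMG were compared with microglia labelled Rab7 control, 2 libraries against 2. Genes entered the comparison if they reached at least 10 RPM, that is, read counts scaled to a common library total, in at least 2 of these 4 libraries. This rule kept 3792 of the 24453 genes listed. Of these, 3049 reached the minimum in all 4 libraries, 121 passed only through the labelled control libraries and 137 only through the labelled deltaMG libraries, so that genes of the last 2 kinds were high in 1 group by selection. At the edge of the rule, Rap2b was kept with a second highest value of 10.0 RPM and Abcf1 was left out with 9.98 RPM.

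The series holds 10 RNA-seq libraries of mouse brain microglia, cells that were separated with magnetic beads (MACS), flash frozen and extracted for total RNA. All mice were C57bl6 and untreated. The deltaMG and control mice were 3 months old, and the series text describes the deltaMG animals as null for Rab7. The labels give no Cre driver, no floxed allele and no inducing agent for either group, and they do not say how many animals went into a library. A second experiment of the series, with 3 libraries from mice aged 15 months (aged) and 3 from mice aged 10 weeks (young), was used to estimate the spread between replicates and as a reference. Whether replicates are separate animals is not stated in the labels, so the p-values measure only how these libraries spread, which may be technical in part.

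Rab7 is a small GTPase of late endosomes. In its active form it recruits tethering complexes, retromer and motor adaptors, and it is needed for late endosomes and autophagosomes to fuse with lysosomes. Lysosomes then degrade their cargo with acid hydrolases such as the cathepsins, in a lumen acidified by the vacuolar ATPase. Microglia, the resident macrophages of the brain, clear myelin, debris and dying cells through this route. When they take up much of such cargo they are known to switch from a homeostatic gene set (P2ry12, Tmem119, Cx3cr1) to a set called disease-associated (Apoe, Axl, Cst7, Itgax), which includes many lysosomal genes.

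The labels name Rab7, so its level comes first. Rab7 (chromosome 6, 87999106 to 88045270, GRCm38) had values of 64.2 and 67.5 RPM in the control libraries and of 72.2 and 79.4 RPM in the deltaMG libraries, as labelled. The labelled deltaMG values were thus the higher ones, without overlap, at a log2 fold change of 0.20 ± 0.20 (SE) (limma adjusted p = 0.655). With a score of neutrophil markers per library as covariate the sign turned, to -0.21 (limma adjusted p = 0.637). The table gives 1 value per gene, and reads from exons that a deletion would spare cannot be separated from the rest. The level of Rab7 therefore does not check the labels. The groups are called the labelled control and the labelled deltaMG libraries throughout, and every direction below rests on the labels.

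The RPM values of the 4 libraries were scaled to 6729713 to 8370537 reads, and listed genes held 1507824 to 1773314 of these. Microglial markers were high in all of them. The 12 markers examined, among them Tmem119, P2ry12, Sall1 and Csf1r, summed to 5158 and 4689 RPM in the labelled control and to 3729 and 4752 RPM in the labelled deltaMG libraries. Of the 12, 0 were called, which lies near the 4.59% called over all genes. A negative log2 fold change was found for 10 of them (53.3% of all genes), with a median of -0.18. Values were apart and lower for 6 (28.2% of all genes). At an unadjusted p under 0.05 (limma), 3 were lower and 0 higher, against 410 and 319 of all 3792 genes. Markers of T, NK and B cells, oligodendrocyte precursors, neurons, endothelium and pericytes each summed to at most 13.3 RPM, astrocyte markers to at most 56.3 RPM and oligodendrocyte markers to at most 22.9 RPM. Neutrophil, monocyte, erythroid and choroid plexus transcripts differed between the groups, and their values stand beside the results below. In bulk libraries fewer cells of a type and less RNA per cell cannot be told apart. Xist stood at 924 to 1562 RPM and 4 Y-linked genes summed to 9.11 to 25.8 RPM, so that each of the 4 libraries held transcripts of both sexes. The Y-linked sum was lowest in labelled deltaMG replicate 2, and its part in the results was not tested.

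Of the 3792 genes, limma called 174 (4.59%), where a call is a Benjamini-Hochberg adjusted p under 0.05. The labelled deltaMG libraries were higher for 55 of them (1.45%) and lower for 119 (3.14%). Of the 119, 30 had passed the minimum only through the labelled control libraries, and 18 of the 55 only through the labelled deltaMG libraries. Such genes had to differ in level, and they are named as such below, with their values as a description. A fold of at least 2 on the log2(RPM + 1) scale was reached by 32 of the higher genes (0.844% of those tested) and by 60 of the lower (1.58%). An unadjusted p under 0.05 was found for 729 genes (19.2%). The values of the groups did not overlap for 1996 genes (52.6%), 927 of them higher (24.4%) and 1069 lower (28.2%), so that with 2 libraries a group a lack of overlap by itself marked more than the called genes. The median log2 fold change of all genes was -0.02. The split between directions moved with the scaling: it was 55 higher and 119 lower as deposited, 103 and 138 with median-of-ratios rescaling and 108 and 140 with quantile normalization. It was 226 and 250 when the 4 libraries were fitted alone, and that fit called all 174 genes again.

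**Figure D1:**
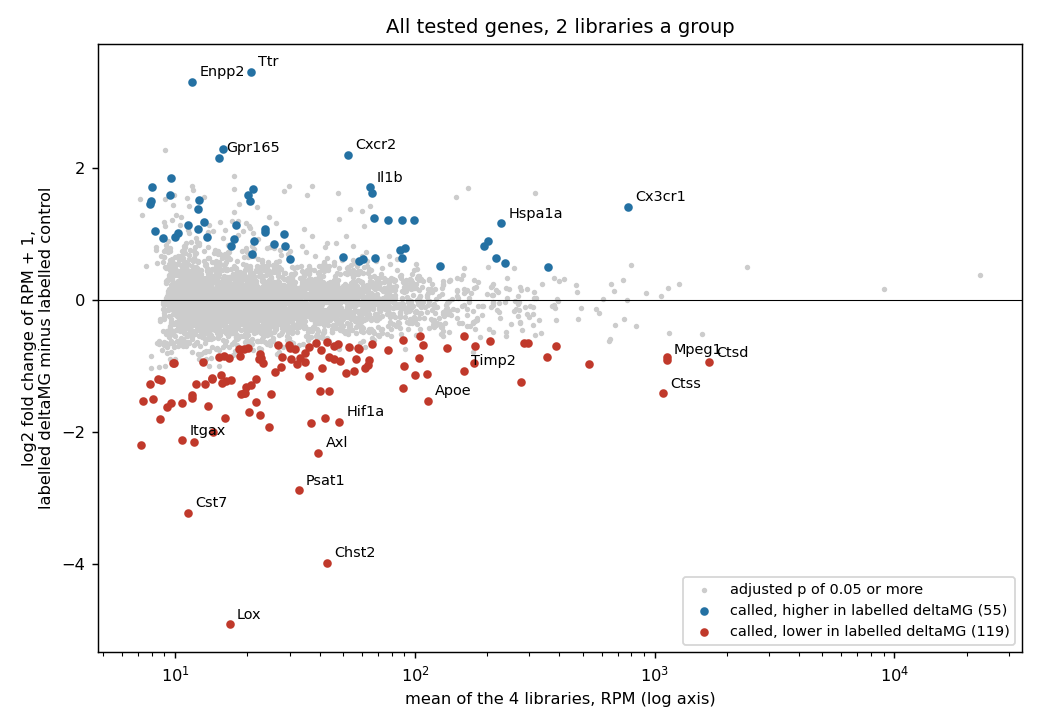
Each point is 1 of the 3792 tested genes. The x axis is the mean of the 4 libraries in RPM on a log axis and the y axis is the log2 fold change of RPM + 1, labelled deltaMG minus labelled control. Red points are the 119 genes called lower, blue points the 55 called higher and grey points the genes that did not pass. Lox, Chst2 and Cst7 lie lowest and Ttr and Enpp2 highest.

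The calls depended on single libraries. Without labelled control replicate 1, 29 of the 119 lower genes and 10 of the 55 higher genes were still called. Without control replicate 2 these were 67 and 17, with deltaMG replicate 1 left out 45 and 17, and with deltaMG replicate 2 left out 69 and 16. In such a fit the lone library of an arm is assumed to vary like the other groups. Over all genes, leaving out control replicate 1 gave 29 lower and 11 higher calls, control replicate 2 gave 70 and 17, deltaMG replicate 1 gave 45 and 18, and deltaMG replicate 2 gave 76 and 16. They were 157 and 145 without aged replicate 3, 91 higher without aged replicate 2 and 35 higher without young replicate 1. A set of 29 lower and 6 higher genes was called whichever of the 10 libraries was left out. The lower ones were Ank, Apoe, Atp6v0c-ps2, Axl, Cadm1, Camk2n1, Cd22, Cd9, Chst2, Csf1, Cst7, Ctsb, Ctsl, Ctss, Ctsz, Epb41l3, Hif1a, Itgax, Lag3, Lox, Ly9, Mfsd1, Npc2, Pld3, Psat1, Ptgfrn, Slc12a2, Timp2 and Vcam1. The higher ones were Cx3cr1, Enpp2, Gpr165, Hspa1a, Tet1 and Ttr. Atp6v0c-ps2 is a pseudogene, whose reads may belong to its parent gene. Every such fit used the same kept genes. Some of this set passed the minimum only through 1 group, among them Ank, Cd22, Chst2, Cst7, Itgax, Lox, Ly9, Psat1, Vcam1, Enpp2 and Ttr. Their kept calls are a description.

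Cathepsins, the proteases of the lysosome, were lower in the labelled deltaMG libraries. Of 11 cathepsin and legumain genes tested, 5 were called lower and 0 higher, against 3.14% and 1.45% of all genes, and all 11 had a negative log2 fold change, with a median of -0.52. Ctss (chromosome 3, 95526786 to 95556405, GRCm38), an elastin-cutting cathepsin that also trims the MHC class II invariant chain, stood at 1947 and 1219 RPM in the labelled control and at 505 and 666 RPM in the labelled deltaMG libraries. Both labelled control values were above both others, and control replicate 1 was the highest of the 10 libraries. The log2 fold change was -1.41 ± 0.21 (SE) (limma adjusted p = 0.00126).

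Ctsb, a broad cysteine protease, stood at 745 and 661 RPM against 317 and 403 RPM, a log2 fold change of -0.97 (limma adjusted p = 0.00126). Ctsl, another endopeptidase of this family, stood at 460.3 and 322 RPM against 146 and 180.4 RPM, a log2 fold change of -1.24 (limma adjusted p = 0.00113). Ctsz, a carboxypeptidase, stood at 168 and 139.6 RPM against 65.1 and 74.5 RPM, a log2 fold change of -1.13 (limma adjusted p = 0.000476). In each of these the labelled deltaMG libraries were below the labelled control libraries and near the young ones, which had means of 302, 166 and 58.5 RPM. The aspartic protease Ctsd went from 2096 and 2313 RPM to 964 and 1361 RPM, a log2 fold change of -0.94 (limma adjusted p = 0.0182). Ctsd was the only one of the 5 that lost its call when a library was left out, and its adjusted p was 0.122 without control replicate 1, 0.137 without control replicate 2 and 0.226 without deltaMG replicate 1. With the neutrophil score as covariate it was 0.0738.

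Of 5 tested members of a list of protease inhibitors and their relatives, 3 were called lower (3.14% of all genes) and 1 higher (1.45%). Cst7, cystatin F, an inhibitor that holds cathepsins inactive in immune cells, stood at 17.2 and 24.96 RPM and 0.717 and 2.17 RPM, a log2 fold change of -3.22 ± 0.40 (SE), and it passed the minimum only through the labelled control libraries. Timp2, an inhibitor of matrix metalloproteinases, fell from 231 and 203 RPM to 96.5 and 109 RPM, a log2 fold change of -1.07 (limma adjusted p = 0.000476). Serpine2, which inhibits thrombin and plasmin, fell from 144 and 112 RPM to 51.0 and 48.9 RPM (log2 fold change -1.33, limma adjusted p = 0.00165), and its adjusted p was 0.0593 without control replicate 1. Serpinf1, which encodes PEDF, is listed as a member of the serpin family and not as an inhibitor. Serpinf1 stood higher in the labelled deltaMG libraries, at 16.2 and 18.2 RPM against 7.88 and 7.33 RPM. It passed the minimum only through the labelled deltaMG libraries, and its call was lost without any 1 of the 4 libraries, with adjusted p from 0.0521 to 0.0783.

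Among other lysosomal hydrolases and their activators, 7 of 36 tested genes were called lower (3.14% of all genes) and 0 higher (1.45%). A negative log2 fold change was found for 31 of the 36 and for 2020 of all 3792 genes (53.3%), with a list median of -0.46. Npc2, the soluble carrier that hands cholesterol to Npc1, stood at 155 and 121 RPM in the labelled control and 54.5 and 69.4 RPM in the labelled deltaMG libraries, a log2 fold change of -1.14 (limma adjusted p = 0.00127). Pld3, an endolysosomal exonuclease, stood at 31.9 and 30.9 RPM and 7.05 and 11.4 RPM, a log2 fold change of -1.70 (limma adjusted p = 0.000752). These 2 kept their calls whichever library was left out. Hexa, the alpha subunit of beta-hexosaminidase, fell from 95.7 and 74.2 RPM to 37.9 and 47.0 RPM and Gm2a, the GM2 activator that works with it, from 62.3 and 51.8 RPM to 33.2 and 36.0 RPM. The other 3 were Fuca2, Man2b1 and Ppt1, which act on fucosides, mannosides and palmitoylated proteins, with log2 fold changes of -0.90, -0.69 and -0.61. For Hexa the limma result was an adjusted p of 0.104 without control replicate 1 and 0.0621 without deltaMG replicate 1. Without control replicate 1 and without deltaMG replicate 1 the list had 2 lower calls each.

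Of 27 tested lysosomal membrane proteins, 4 were called lower (3.14% of all genes) and 0 higher (1.45%), with a median log2 fold change of -0.23. Of the 4, Cd63 passed the minimum only through the labelled control libraries. Mfsd1, a transporter of the lysosomal membrane, went from 82.3 and 69.5 RPM to 31.9 and 38.9 RPM, a log2 fold change of -1.08 (limma adjusted p = 0.00126), and kept its call in every fit that left out a library. Lamp1, the most widely used marker of the lysosomal membrane, went from 491 and 421 RPM to 224 and 279.9 RPM, a log2 fold change of -0.86 (limma adjusted p = 0.00293). Cd63, a tetraspanin of late endosomes, and Npc1, the cholesterol exporter, had log2 fold changes of -1.56 and -0.68. When a library was left out, Lamp1 had an adjusted p of 0.0898 without control replicate 1 and 0.0521 without deltaMG replicate 1. Cd63 had an adjusted p of 0.117 without control replicate 1 and 0.0515 without deltaMG replicate 2. Npc1 had an adjusted p of 0.304 without control replicate 1, 0.124 without control replicate 2 and 0.348 without deltaMG replicate 1. Of 14 vacuolar ATPase genes, which encode the proton pump, 1 was called lower (against the same 3.14%), Atp6v1c1, from 46.2 and 39.3 RPM to 19.0 and 24.0 RPM (limma adjusted p = 0.00859), with an adjusted p of 0.173 without control replicate 1 and 0.138 without deltaMG replicate 1. The list median was -0.24.

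Many lysosomal genes are known targets of TFEB and related factors, which bind the CLEAR element, an extended E-box. The 250 bases before each annotated start (RefSeq, GRCm38.p6) were searched for TCACGTG on either strand. It was found for 13 of 69 tested lysosomal genes with a sequence (18.8%), for 209 of 3062 tested genes (6.83%) and for 968 of 27025 genes of the RefSeq promoter table (3.58%). Among lysosomal genes it was present in 3 of 14 that were called lower (21.4%) and in 10 of 55 that were not called (18.2%). Among all genes called lower it was present in 7 of 94 (7.45%): Ctsd, Fnip1, Hif1a, Lamp1, Lonrf3, Mfsd1 and Nceh1. The 120 bases before the start of the 3 lysosomal genes called lower that hold it are printed here because they display how the motif is spaced. Each runs 5′ to 3′ on the gene's strand, and capitals mark TCACGTG or its reverse complement CACGTGA.
Mfsd1 (chr3:67582648-67582767, plus strand): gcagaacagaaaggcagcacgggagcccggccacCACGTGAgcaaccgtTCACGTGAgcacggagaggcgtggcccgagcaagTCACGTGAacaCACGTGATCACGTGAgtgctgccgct
Lamp1 (chr8:13159041-13159160, plus strand): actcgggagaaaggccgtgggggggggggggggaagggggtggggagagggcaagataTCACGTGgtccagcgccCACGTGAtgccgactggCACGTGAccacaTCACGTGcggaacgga
Ctsd (chr7:142387828-142387947, minus strand): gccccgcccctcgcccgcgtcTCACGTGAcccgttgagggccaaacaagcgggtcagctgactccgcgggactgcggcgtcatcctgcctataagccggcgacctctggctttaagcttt
Mfsd1 holds 8 matches on the 2 strands in 4 runs of capitals, Lamp1 4 in 4 and Ctsd 2 in 1, a palindrome read on both strands. A match describes letters only, and the table says nothing about binding.

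Genes of the machinery through which Rab7 acts were examined as well. Of 30 tested Rab7 effectors, tethering and SNARE genes, retromer subunits and other endosomal Rab genes, limma called 0 in either direction. Over all genes the share called was 4.59%, and a count of 0 in 30 lies near it. At an unadjusted p under 0.05 (limma), 4 of the 30 were lower and 0 higher, against 410 and 319 of all 3792 genes. The median log2 fold change of the list was -0.16. The smallest p belonged to Stx7, a SNARE of late endosome fusion, at 65.5 and 51.3 RPM in the labelled control and 31.2 and 41.5 RPM in the labelled deltaMG libraries (log2 fold change -0.67, limma adjusted p = 0.0546). It passed under other scalings, with limma adjusted p of 0.0294 after median-of-ratios rescaling, 0.0385 after quantile normalization and 0.022 with equal totals. Snap29, a SNARE of autophagosome fusion, had a log2 fold change of -0.62 (limma adjusted p = 0.0855), and Vps26a, a retromer subunit, one of -0.48 (limma adjusted p = 0.139).

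Of 8 genes of TFEB-type factors and lysosomal nutrient sensing, 2 were called lower (3.14% of all genes). These were Fnip2 and Fnip1, partners of folliculin, which takes part in the amino acid response at the lysosome. Fnip2 went from 69.8 and 58.7 RPM to 30.7 and 36.3 RPM (log2 fold change -0.92, limma adjusted p = 0.0225) and Fnip1 from 44.0 and 35.7 RPM to 22.2 and 24.3 RPM (log2 fold change -0.74, limma adjusted p = 0.0443). Of 12 autophagy genes, 1 was called lower (against the same 3.14%), the cargo receptor Sqstm1 (p62), at 31.4 and 30.0 RPM and 13.02 and 18.1 RPM (log2 fold change -0.95, limma adjusted p = 0.0305). These 3 calls were lost when libraries were left out. Fnip2 had an adjusted p from 0.0611 to 0.256 without any 1 of the 4 libraries. Fnip1 had an adjusted p from 0.0942 to 0.37 without any 1 of the 4 libraries. Sqstm1 had an adjusted p of 0.235 without control replicate 1, 0.131 without control replicate 2 and 0.292 without deltaMG replicate 1. The median of the autophagy list was -0.14.

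Lipid handling was led by Apoe. Apoe (chromosome 7, 19696244 to 19701310, GRCm38), the lipid carrier that microglia secrete, stood at 193 and 144 RPM in the labelled control and at 62.7 and 52.7 RPM in the labelled deltaMG libraries. The young libraries ranged from 29.9 to 42.0 RPM and the aged from 77.4 to 103 RPM, so that the labelled control libraries were above all others and the labelled deltaMG libraries lay between young and aged. The log2 fold change between the labelled groups was -1.52 ± 0.20 (SE) (limma adjusted p = 0.000476). Of 17 tested lipid and cholesterol genes, 6 were called lower (3.14% of all genes) and 0 higher (1.45%), with a median of -0.22. Besides Apoe, Npc2 and Npc1 these were Soat1, which esterifies cholesterol, Nceh1, which hydrolyses its esters, and the lipoprotein receptor Lrp1, with log2 fold changes of -0.80, -1.14 and -0.62. Nceh1 passed the minimum only through the labelled control libraries. With control replicate 1, control replicate 2 or deltaMG replicate 1 left out, 2 lower calls remained in number. None of 25 cholesterol synthesis genes reached the minimum to be tested.

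**Figure D2:**
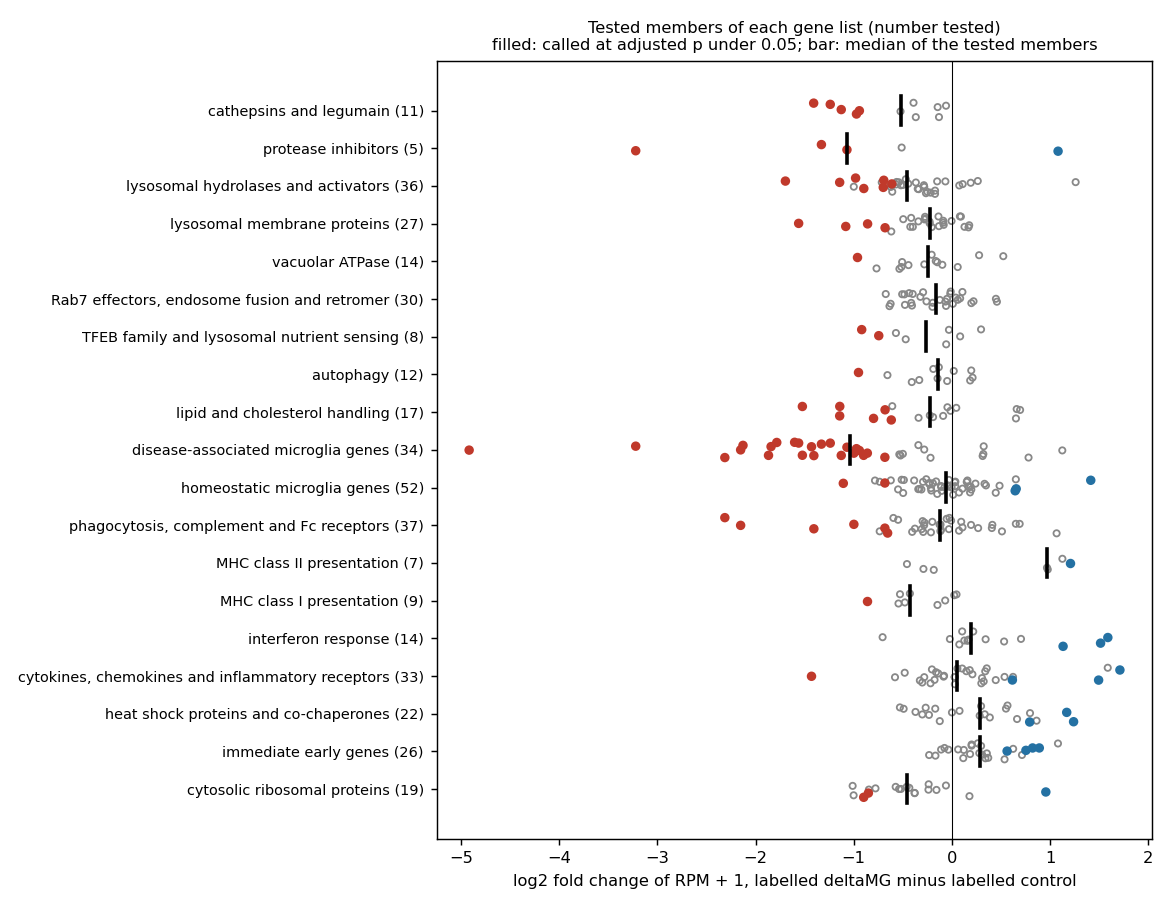
Rows are gene lists with the number of tested members, and the x axis is the log2 fold change of RPM + 1, labelled deltaMG minus labelled control. Each point is a gene, filled red if called lower, filled blue if called higher and open if not called, and the black bar is the median. The disease-associated list has a median of -1.03 with 23 red points, and the list of Rab7 effectors has no filled point.

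Disease-associated microglia genes were mostly lower in the labelled deltaMG libraries. Of 34 tested members, 23 were called lower and 0 higher in the labelled deltaMG libraries, against 3.14% and 1.45% of all genes. The median log2 fold change was -1.03, against -0.02 for all genes. Of the 34, 6 had passed the minimum only through the labelled control libraries, and all 6, Ank, Cd22, Cd63, Cst7, Itgax and Lox, are among the 23, so part of the count and of the median follows from the filter. The other 17 called members had reached the minimum in at least 1 labelled deltaMG library. Of those called, Ctsb, Ctsd, Ctsl, Ctsz, Cst7, Serpine2, Timp2, Cd63, Apoe, Axl, Cd22, Clec7a, Trem2, Tyrobp, Csf1 and B2m stand on other lists of this report too, so the lists' counts are not independent. Of the 23, 15 kept their call whichever library was left out. Leaving out control replicate 1 gave 15 calls and leaving out control replicate 2 gave 20, against 18 and 19 when deltaMG replicate 1 or 2 was left out. It was 23 with the neutrophil score as covariate, where Ctsd and Trem2 lost their calls and 21 of the 23 held. All these fits used the same kept genes. For the 6 members that passed only through the labelled control libraries, a kept call is therefore a description.

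Lox, a lysyl oxidase that crosslinks collagen and elastin, passed the minimum only through the labelled control libraries, and its values are a description. It stood at 38.2 and 28.9 RPM in the labelled control and at 0.120 and 0.145 RPM in the labelled deltaMG libraries, the latter worth 1 read in each library. With the reads of both libraries of a group pooled, 462 against 2, the ratio of the groups was 255. Its exact 95% interval, from 70.3 to 2116, covers counting error only. It leaves out the spread between libraries and the choice of the gene by the filter, so it tests nothing. The young libraries held 0.473 to 0.576 RPM and the aged 1.01 to 2.41 RPM, so that Lox was high in the labelled control libraries and near the floor in the other 8. The fitted log2 fold change was -4.92.

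Axl, a receptor kinase for the engulfment of dying cells, stood at 78.9 and 54.3 RPM in the labelled control and 13.7 and 11.1 RPM in the labelled deltaMG libraries, a log2 fold change of -2.31 ± 0.26 (SE) (limma adjusted p = 0.000147). Itgax, the integrin CD11c, stood at 18.9 and 17.2 RPM and 2.75 and 4.05 RPM, a log2 fold change of -2.13, and passed the minimum only through the labelled control libraries. Cd9, a tetraspanin, stood at 67.8 and 49.6 RPM and 15.9 and 14.5 RPM, a log2 fold change of -1.87 (limma adjusted p = 0.000476). In all 3 the groups were apart, by more than the distance between the replicates. Hif1a, the oxygen-sensing transcription factor, fell from 82.0 and 70.1 RPM to 17.6 and 23.7 RPM (log2 fold change -1.84, limma adjusted p = 0.000115). Cadm1, an adhesion molecule, and Ank, a membrane protein involved in pyrophosphate export, had log2 fold changes of -1.78 and -1.60. Clec7a, the beta-glucan receptor Dectin-1, went from 31.1 and 26.2 RPM to 10.0 and 10.3 RPM (limma adjusted p = 0.0449). Trem2, the lipid-sensing receptor of the disease-associated switch, and its adaptor Tyrobp had log2 fold changes of -0.68 (limma adjusted p = 0.0372) and -0.998 (limma adjusted p = 0.00864). These last 3 calls were lost when libraries were left out. Clec7a had an adjusted p from 0.145 to 0.322 without any 1 of the 4 libraries. Trem2 had an adjusted p from 0.123 to 0.291 without any 1 of the 4 libraries. Tyrobp had an adjusted p of 0.195 without control replicate 1 and 0.121 without deltaMG replicate 1.

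The 11 members of the list that did not pass had log2 fold changes from -0.54 for the ferritin chain Fth1 to 1.12 for Cybb, the catalytic subunit of the phagocyte oxidase. Lyz2 and Cd52 stood at 0.32 and 0.31. Cybb, Lyz2 and Cd52 are expressed by neutrophils and monocytes as well. The 14 tested neutrophil markers all had higher values in the labelled deltaMG libraries, and the part of these cells in the values of Cybb, Lyz2 and Cd52 was not tested. A further 10 members lay under the minimum and were not tested. Spp1, the secreted phosphoprotein osteopontin, stood at 3.27 and 1.97 RPM in the labelled control and 6.09 and 7.23 RPM in the labelled deltaMG libraries, Lpl, a lipase of triglycerides, at 2.67 and 5.78 RPM and 10.5 and 8.25 RPM, and Lgals3, a galectin, at 0.743 and 0.564 RPM and 2.87 and 3.18 RPM. These 3 were higher in the labelled deltaMG libraries, opposite to the 23 called members. Igf1, a growth factor, stood at 4.31 and 5.64 RPM and 1.79 and 1.59 RPM, in the direction of the called members.

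The phagocytosis, complement and Fc receptor list had 6 of 37 tested members called lower (3.14% of all genes) and 0 higher (1.45%), with a median of -0.13. Besides Axl, Tyrobp, Trem2 and Clec7a these were Cd22 and C3ar1. Cd22, an inhibitory Siglec that restrains phagocytosis, stood at 22.3 and 18.2 RPM in the labelled control and 4.06 and 3.47 RPM in the labelled deltaMG libraries, a log2 fold change of -2.15, and passed the minimum only through the labelled control libraries. C3ar1, the receptor for complement fragment C3a, stood at 365 and 334 RPM and 199.9 and 246 RPM (log2 fold change -0.65, limma adjusted p = 0.0303), with an adjusted p of 0.268 without control replicate 1, 0.109 without control replicate 2 and 0.27 without deltaMG replicate 1. Mertk, the other engulfment kinase of microglia, had a log2 fold change of 0.07 and did not pass. Of 9 MHC class I genes, 1 was called lower (3.14% of all genes), the light chain B2m, from 1546 and 1360 RPM to 703 and 906 RPM (log2 fold change -0.86, limma adjusted p = 0.00996), with an adjusted p of 0.182 without control replicate 1 and 0.15 without deltaMG replicate 1.

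Several further genes with large falls lie on none of the lists and were chosen after their values were seen. Chst2, Chst1, Psat1, Vcam1 and Ly9 passed the minimum only through the labelled control libraries, and their values are a description. Chst2 (chromosome 9, 95400926 to 95407270, GRCm38), a sulfotransferase that acts on N-acetylglucosamine, stood at 84.5 and 78.7 RPM in the labelled control and at 2.63 and 6.51 RPM in the labelled deltaMG libraries, a log2 fold change of -3.98 ± 0.32 (SE). Its relative Chst1 stood at 14.6 and 10.4 RPM and 1.91 and 1.88 RPM (log2 fold change -2.20). Psat1, an aminotransferase of serine synthesis, stood at 67.0 and 50.1 RPM and 7.05 and 6.94 RPM (log2 fold change -2.88). For all 3 the young and aged means, 1.42 and 9.08 RPM for Chst2, 2.06 and 4.12 RPM for Chst1 and 7.87 and 14.4 RPM for Psat1, were below both labelled control values. Vcam1 and the immune receptors Ly9 and Lag3 had log2 fold changes of -1.78, -1.92 and -1.37. Csf1, the growth factor of macrophages and a member of the disease-associated and cytokine lists, went from 26.6 and 28.9 RPM to 10.8 and 8.68 RPM (log2 fold change -1.43, limma adjusted p = 0.00126).

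Homeostatic microglia genes were for the most part not called. Of 52 tested members, 3 were higher, among them Cx3cr1 and Fat3, and 2 lower, Cd34 and Trem2, against 1.45% and 3.14% of all genes, with a median log2 fold change of -0.06. Tmem119 and Sall1, which mark microglia among brain macrophages, had log2 fold changes of -0.07 and 0.16 and did not pass. P2ry12, the ADP receptor of resting microglia, stood at 1455 and 1242 RPM in the labelled control and 881 and 1030 RPM in the labelled deltaMG libraries (log2 fold change -0.50, limma adjusted p = 0.177). The call of Cd34, a sialomucin, at 80.9 and 61.1 RPM and 27.9 and 37.0 RPM (log2 fold change -1.11, limma adjusted p = 0.00996), was lost: an adjusted p of 0.195 without control replicate 1 and 0.161 without deltaMG replicate 1.

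Cx3cr1 (chromosome 9, 120048683 to 120068296, GRCm38), the fractalkine receptor through which neurons signal to microglia, stood at 398 and 437 RPM in the labelled control and at 965 and 1285 RPM in the labelled deltaMG libraries. The young libraries ranged from 1068 to 1174 RPM and the aged from 689 to 741 RPM. The labelled control libraries were thus the lowest of the 10, and the labelled deltaMG libraries fell on either side of the young. The log2 fold change was 1.42 ± 0.16 (SE) (limma adjusted p = 0.000147), and the call was kept in each fit that left out a library. As background, the Cx3cr1 gene is a common site for inserting Cre recombinase in microglia studies. The labels do not say whether any of these mice carried such an allele. Fat3, an atypical cadherin, stood at 34.9 and 42.6 RPM and 56.8 and 66.2 RPM, a log2 fold change of 0.66 (limma adjusted p = 0.0372). Fat3 had an adjusted p from 0.0684 to 0.34 without any 1 of the 4 libraries.

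**Figure D3:**
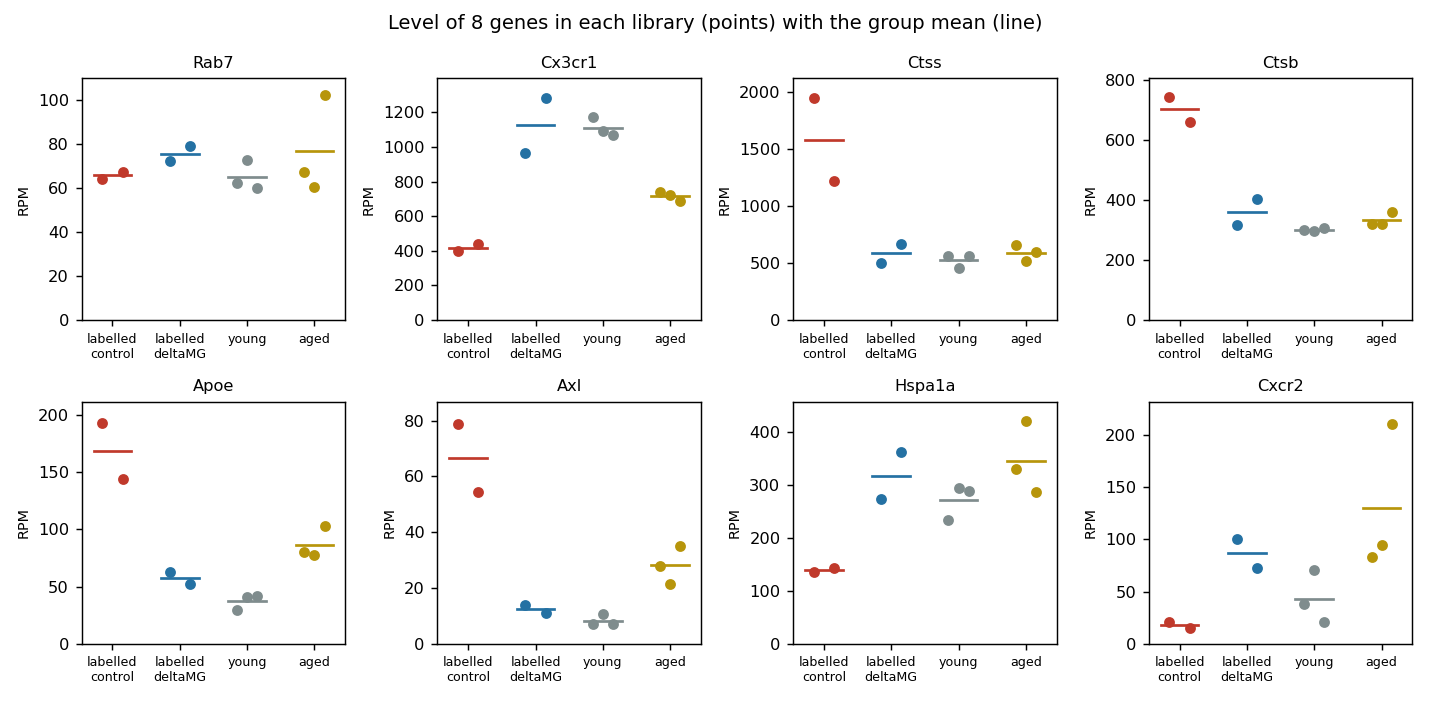
Each panel shows 1 gene in RPM on a linear axis from 0, with a point per library and a line at the group mean for the 2 labelled control, 2 labelled deltaMG, 3 young and 3 aged libraries. For Ctss, Ctsb, Apoe and Axl the labelled control libraries are the highest of the 4 groups, and for Cx3cr1 and Hspa1a they are the lowest. For Rab7 the 10 libraries lie between 60.0 and 103 RPM.

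Heat shock genes were higher in the labelled deltaMG libraries in 3 of 22 tested members, against 1.45% of all genes, and lower in 0, with a list median of 0.29. Hspa1a (chromosome 17, 34969359 to 34972156, GRCm38), an inducible Hsp70 chaperone, stood at 136 and 143 RPM in the labelled control and at 273 and 362 RPM in the labelled deltaMG libraries, a log2 fold change of 1.17 ± 0.19 (SE) (limma adjusted p = 0.00194). Hspa1b, its near-identical neighbour, stood at 38.9 and 40.6 RPM and 86.6 and 105 RPM, a log2 fold change of 1.24 (limma adjusted p = 0.0026, 0.0527 without control replicate 1). Reads of the pair can be assigned to either copy, so the division between them is uncertain. Their co-chaperone Dnajb1 stood at 70.6 and 61.9 RPM and 102 and 130.5 RPM (log2 fold change 0.79, limma adjusted p = 0.0059, 0.09 without control replicate 2 and 0.074 without deltaMG replicate 2). Hsp70 and Dnajb1 are textbook targets of the heat shock factor Hsf1, which binds inverted GAA repeats. Hsph1, Dnajb4, Dnaja1 and Hsp90aa1, of the same cytosolic system, had log2 fold changes of 0.80, 0.66, 0.57 and 0.55 and did not pass. Chaperones of the endoplasmic reticulum and mitochondria, Hspa5, Hsp90b1 and Hspa9, stood at -0.27, -0.30 and -0.53 and did not pass either. The labelled control means of Hspa1a and Hspa1b were the lowest of the 4 groups, with young means of 273 and 84.5 RPM.

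The pair was chosen for display because its promoters are nearly alike as well. The inverted repeat GAANNTTC (read alike on either strand) was found in the 250 bases before the start in 5 of 17 tested heat shock genes with a sequence (29.4%), in 193 of 3062 tested genes (6.3%) and in 2088 of 27025 genes of the promoter table (7.73%). Among all genes called higher with a sequence it was found in 3 of 42 (7.14%), near the share of tested genes. A longer form of the repeat, with 13 letters, was searched as well. That form was found in 2 of 17 tested heat shock genes (11.8%) and in 17 of 3062 tested genes (0.555%). It was found in 0 of the 3 heat shock genes called higher. Hspa1a and Hspa1b hold the shorter repeat, and Dnajb1 does not within this window. The stretch from 200 to 81 bases before the start follows, 5′ to 3′ on the minus strand, with the match in capitals.
Hspa1a (chr17:34972237-34972356, minus strand): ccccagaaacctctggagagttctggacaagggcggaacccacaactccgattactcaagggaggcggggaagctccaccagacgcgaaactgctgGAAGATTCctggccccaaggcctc
The same 120 bases before Hspa1b (chr17:34959319-34959438) showed 0 differences, and the whole 250 bases differed at 3.

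Immediate early genes, which respond to stimuli within minutes, had 4 of 26 tested members called higher (1.45% of all genes) and 0 lower (3.14%), with a median of 0.29. These were Dusp1, Nr4a1, Zfp36l1 and Mcl1, with log2 fold changes of 0.82, 0.89, 0.75 and 0.56. Dusp1, a phosphatase that ends MAP kinase signals, stood at 126 and 154 RPM in the labelled control and 224 and 273 RPM in the labelled deltaMG libraries (limma adjusted p = 0.0463). Leaving out control replicate 1, control replicate 2 or deltaMG replicate 2 left 0 calls in this list, and leaving out deltaMG replicate 1 left 1. With the neutrophil score as covariate 1 of the 4 calls held. Fos, Egr1 and Jun had log2 fold changes of 0.62, 0.28 and 0.19 and did not pass. Hmox1, the heme-degrading enzyme, was the only called member of 16 iron and oxidative stress genes (1.45% of all genes were called higher), at 19.2 and 16.9 RPM and 32.5 and 34.3 RPM (log2 fold change 0.85, limma adjusted p = 0.0305), with an adjusted p from 0.143 to 0.19 without any 1 of the 4 libraries.

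Of 33 cytokines, chemokines and inflammatory receptors, 3 were called higher (1.45% of all genes) and 1, Csf1, lower (3.14%). Il1b, the interleukin released by activated myeloid cells, stood at 34.9 and 24.7 RPM in the labelled control and 117 and 83.2 RPM in the labelled deltaMG libraries, a log2 fold change of 1.71 (limma adjusted p = 0.00686, 0.107 without control replicate 2 and 0.131 without deltaMG replicate 1). The prostaglandin synthase Ptgs2 stood at 11 and 8.46 RPM and 43.8 and 19.1 RPM and the endotoxin co-receptor Cd14 at 23.2 and 23.8 RPM and 39.7 and 33.7 RPM, with log2 fold changes of 1.495 and 0.62. Ptgs2 had an adjusted p of 0.182 without control replicate 1, 0.227 without control replicate 2 and 0.392 without deltaMG replicate 1. Cd14 had an adjusted p from 0.0783 to 0.322 without any 1 of the 4 libraries. With the neutrophil score as covariate the log2 fold change was 0.56 for Ptgs2 (limma adjusted p = 0.301), 0.61 for Cd14 (limma adjusted p = 0.115) and 0.82 for Il1b (limma adjusted p = 0.015), so that Il1b kept its call at a smaller value. Neutrophil markers summed to 724.6 and 481.4 RPM in the labelled control and to 1911 and 1259 RPM in the labelled deltaMG libraries. In all 3 the groups were apart, and deltaMG replicate 1 was the highest of the 4 libraries. Of 14 interferon response genes, 3 were called higher and 0 lower (against the same 1.45% and 3.14%), Ifitm2, Ifitm3 and Samd9l, with log2 fold changes of 1.51, 1.13 and 1.59. Ifitm2 passed the minimum only through the labelled deltaMG libraries. None of these 3 calls held with the neutrophil score as covariate, with adjusted p of 0.106, 0.319 and 0.169, and none held without control replicate 1 (0.142, 0.312 and 0.142), without control replicate 2 (0.107, 0.130 and 0.166) or without deltaMG replicate 1 (0.167, 0.281 and 0.306).

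Of 7 MHC class II genes, 1 was called higher (1.45% of all genes). This was Cd74, the invariant chain that guides class II molecules to endosomes, at 50.4 and 55.1 RPM in the labelled control and 117 and 129.5 RPM in the labelled deltaMG libraries (log2 fold change 1.21, limma adjusted p = 0.0154). The class II chains H2-Aa, at 21.99 and 28.1 RPM and 47.9 and 51.4 RPM, and H2-Ab1, at 33.0 and 36.0 RPM and 62.1 and 76.1 RPM, were apart in the same direction and did not pass (limma adjusted p = 0.0644 and 0.105). H2-Aa passed under median-of-ratios rescaling (adjusted p = 0.0446), quantile normalization (0.0453) and equal totals (0.0386). The call of Cd74 was lost without any 1 of the 4 libraries, with adjusted p from 0.0816 to 0.182, and was 0.103 with the neutrophil score. Markers of border macrophages, which carry much class II, summed to 39.5 and 49.5 RPM in the labelled control and to 50.2 and 51.5 RPM in the labelled deltaMG libraries, and their part in the result was not tested.

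Transcripts of neutrophils had higher levels in the labelled deltaMG libraries. The 17 markers summed to 724.6 and 481.4 RPM in the labelled control and to 1911 and 1259 RPM in the labelled deltaMG libraries. Of 14 tested, all had a positive log2 fold change with groups apart (24.4% of all genes were apart in this direction), with a median of 1.62, and 2 were called (1.45% of all genes), Cxcr2 and Mcemp1. Of the 14, 4 had passed the minimum only through the labelled deltaMG libraries, Mcemp1 among them. Cxcr2, the chemokine receptor of neutrophils, stood at 20.5 and 15.4 RPM and 100.4 and 73.0 RPM, a log2 fold change of 2.21 (limma adjusted p = 0.00935), with an adjusted p of 0.0738 without control replicate 1, 0.107 without control replicate 2 and 0.141 without deltaMG replicate 1. The granule proteins S100a8 and S100a9 stood at 91.8 and 55.8 RPM against 282 and 160 RPM and at 214 and 103 RPM against 594 and 354 RPM. They did not pass. None of the neutrophil markers was at 0 in all 4 libraries.

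The 12 monocyte markers summed to 135.1 and 91.8 RPM in the labelled control and to 301.1 and 232.8 RPM in the labelled deltaMG libraries. All 7 tested were positive and apart (24.4% of all genes), with a median of 1.13, and 1 was called (1.45%), Nr4a1, which is also an immediate early gene. With the neutrophil score as a covariate the median of all genes shifted from -0.02 to -0.13. In that fit 82 of the 119 genes called lower and 25 of the 55 called higher were still called. Of the 174 genes 0 changed sign. The score was 4.75 and 4.14 in the labelled control and 6.30 and 5.74 in the labelled deltaMG libraries, without overlap. It thus shares part of the group difference, and a call lost in that fit may reflect lower precision. The part of these cells in single results was otherwise not tested.

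Ttr, the thyroxine carrier of the choroid plexus, passed the minimum only through the labelled deltaMG libraries, as did Enpp2, and the values of both are a description. It stood at 2.23 and 2.26 RPM in the labelled control and at 20.9 and 57.4 RPM in the labelled deltaMG libraries, a log2 fold change of 3.46. Enpp2, the lysophospholipase autotaxin, which the choroid plexus also expresses, stood at 1.64 and 0.705 RPM and 12.2 and 32.5 RPM, a log2 fold change of 3.31. Both were lower in the labelled control libraries than in the other 8, and deltaMG replicate 2 was above deltaMG replicate 1. The 6 ependymal and choroid plexus markers summed to 2.38 and 2.54 RPM in the labelled control and to 23.4 and 62.6 RPM in the labelled deltaMG libraries, with Ccdc153 and Rarres2 at 0 in all 4. In the young libraries that sum was 29.3 to 112 RPM. Erythroid markers summed to 0.149 and 0.283 RPM against 16.4 and 3.04 RPM. The part of choroid plexus tissue in these results was not tested.

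**Figure D4:**
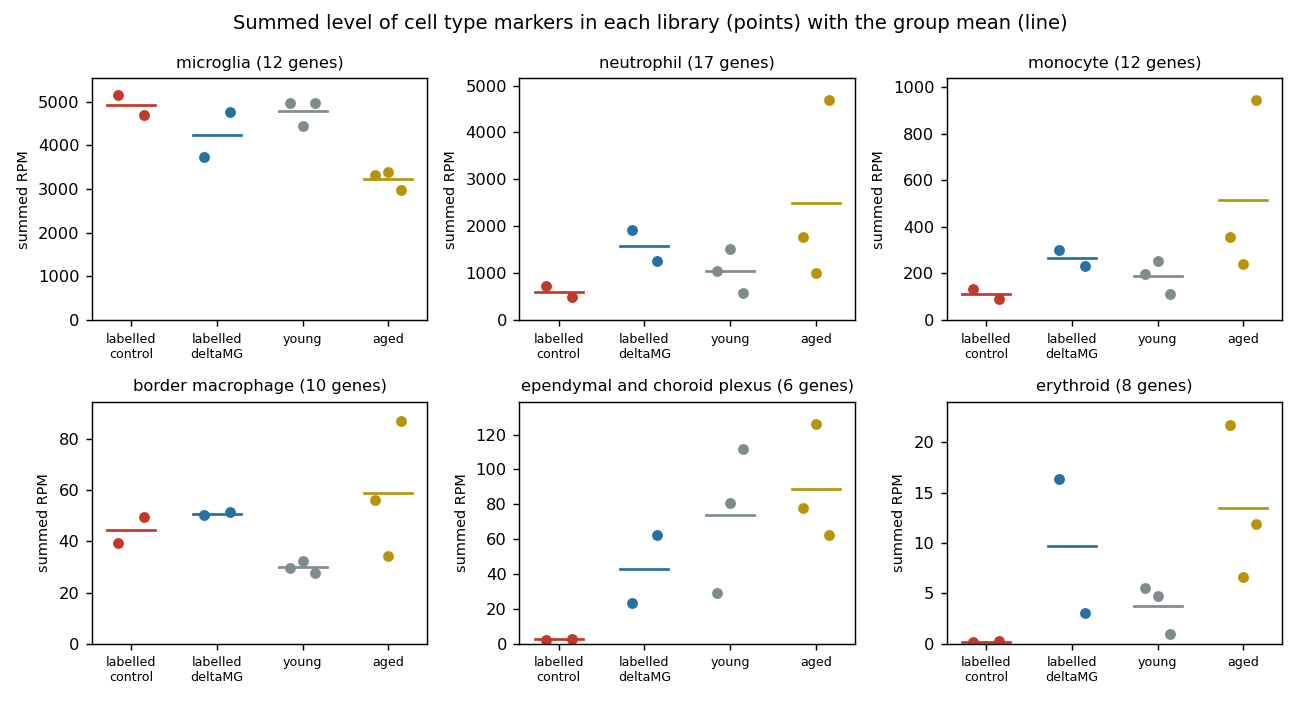
Each panel gives the summed RPM of a marker list on a linear axis from 0, with a point per library and a line at the group mean. Microglial sums overlap between the labelled groups. Neutrophil, monocyte, choroid plexus and erythroid sums are lower in the 2 labelled control libraries than in the 2 labelled deltaMG libraries.

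Cytosolic ribosomal protein genes had 2 of 19 tested members called lower (3.14% of all genes), Rps6 and Rps9, and 1 higher (1.45%), Rpl29, with a median of -0.46. These families have many processed copies in the genome, so reads of single members are uncertain, and each of the 3 calls was lost without control replicate 1. Limma called 0 of 7 tested nuclear respiratory chain genes, 0 of 7 purinergic genes and 0 of 3 cell cycle genes, with 1, 2 and 1 of them at an unadjusted p under 0.05. These counts lie near the shares over all genes, 4.59% called and 19.2% at an unadjusted p under 0.05. The list medians were -0.21, -0.16 and 0.04, and all 7 respiratory chain genes had a negative log2 fold change (53.3% of all genes). The proliferation marker Mki67 stood at 45.8 and 34.1 RPM in the labelled control and 77.2 and 64.5 RPM in the labelled deltaMG libraries, a log2 fold change of 0.82 (limma adjusted p = 0.406) that turned to -0.51 with the neutrophil score as covariate.

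The young libraries, from mice of nearer age than the aged, were used to ask which of the labelled groups stood apart. This comparison was added after the data were seen. Limma called 368 genes (9.7%) between the labelled control and the young libraries, 299 higher (7.89%) and 69 lower (1.82%) in the labelled control. Between the labelled deltaMG and the young libraries it called 4 genes (0.105%), Cd74, H2-Aa, H2-Ab1 and Ildr2, all higher in the labelled deltaMG, and 0 lower. At an unadjusted p under 0.05 (limma), 262 genes were higher and 56 lower in the labelled deltaMG than in the young libraries. For the labelled control these counts were 693 and 200. Genes had been kept by their levels in the 4 labelled libraries and not in the young ones. Genes high in the young libraries only were thus left out, and part of each split between higher and lower can follow from the filter. Both comparisons share the 3 young libraries, and they cross experiments, ages and sex mix, which cannot be told apart from the labelled state. The first count was 72 without control replicate 1, 178 without control replicate 2 and 214 without young replicate 2. The second was 2 without deltaMG replicate 1, 1 without deltaMG replicate 2, 8 without young replicate 2, 13 when aged replicate 2 was left out and 20 without aged replicate 3.

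Library correlations over the 3792 genes, on the log2(RPM + 1) scale, ordered the groups in the same way. Pearson's r was 0.939 to 0.970 between labelled deltaMG and young libraries, 0.908 to 0.930 between labelled control and young, and 0.910 to 0.932 between labelled control and labelled deltaMG. It was 0.978 between the labelled control replicates and 0.973 between the labelled deltaMG replicates. These values run across genes, which are not independent, and serve as a description.

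For the 119 genes called lower, the mean of the labelled control libraries was above the range of the young libraries in 119, while the labelled deltaMG mean was within that range for 53, above it for 41 and below it for 25. For the 55 called higher, the labelled control mean was below the young range in 51, and the labelled deltaMG mean was within it for 14, above it for 35 and below it for 6. Over all 3792 genes the labelled control mean was above the young range in 1735, within it in 1388 and below it in 669, and the labelled deltaMG mean was above it in 1495, within it in 1858 and below it in 439. The called genes were chosen on these same labelled control values, so the first counts describe them and test nothing. The counts over all 3792 genes can follow in part from the filter, which used the labelled libraries only. For the disease-associated list, 25 of 34 members were called higher in the labelled control than in the young libraries and 0 in the labelled deltaMG. Over all genes these shares were 7.89% and 0.105%, so the 0 lies near its share. At an unadjusted p under 0.05 (limma), 10 of the 34 were higher and 1 lower in the labelled deltaMG, against 262 and 56 of all 3792 genes. The labelled deltaMG mean was above the young range for 20 of the 34 and within it for 9. For the cathepsins the counts called higher were 6 and 0 of 11, and for other lysosomal hydrolases 16 and 0 of 36. In each of these 2 lists 1 labelled deltaMG member was higher at an unadjusted p under 0.05. The minimum was passed only through the labelled control libraries by 6 of the 34, 0 of the 11 and 3 of the 36. For the disease-associated and hydrolase lists, part of the contrast can thus follow from the filter. Ctss differed from young by log2 fold changes of 1.55 in the labelled control (limma adjusted p = 0.000139) and 0.15 in the labelled deltaMG libraries (limma adjusted p = 0.847). For Cx3cr1 these were -1.41 (limma adjusted p = 2.12e-05) and less than 0.01 in size (limma adjusted p = 0.994).

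**Figure D5:**
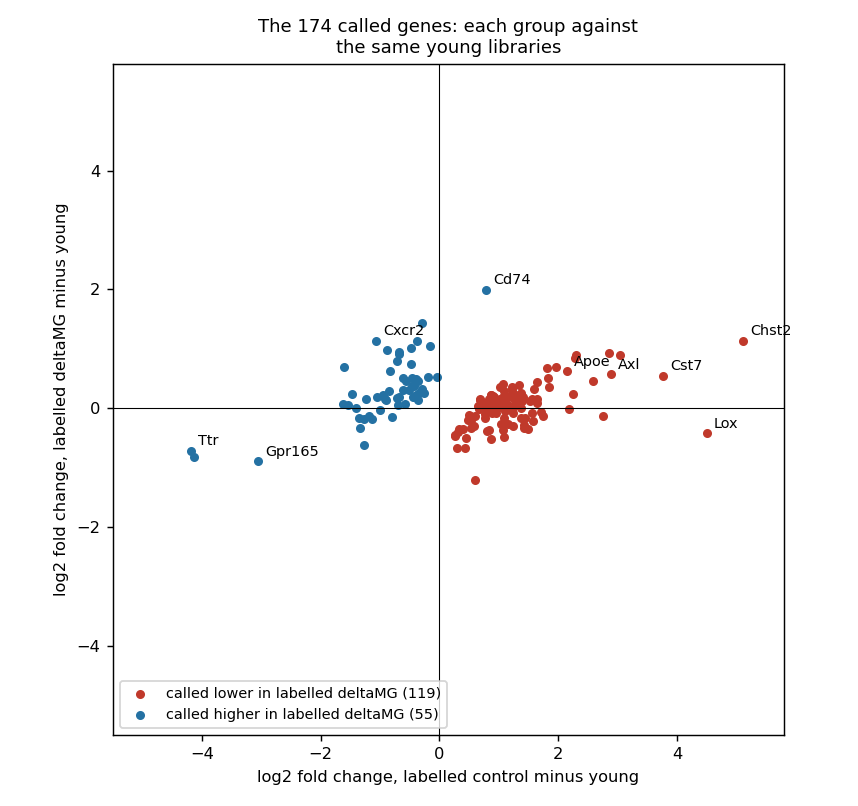
Each point is 1 of the 174 called genes. The x axis is the log2 fold change of the labelled control minus the young libraries and the y axis that of the labelled deltaMG minus the same young libraries, at equal scale, so the axes share their reference. Points span -4.18 (Ttr) to 5.12 (Chst2) on the x axis and -1.21 (Atp6v0c-ps2) to 1.99 (Cd74) on the y axis.

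The difference between the labelled groups was then set against the ageing effect, which used other libraries. Limma called 190 genes (5.01%) for the difference between the 2 effects, and 223 (5.88%) for aged minus young itself. The 190 became 73 when control replicate 1 was left out, 110 for control replicate 2, 104 for deltaMG replicate 2 and 431 with the neutrophil score as covariate. Of the 119 genes called lower in the labelled deltaMG libraries 77 differed from the ageing effect, and of the 55 called higher 24 did. The effect that chose these genes is a term of the difference, so these counts, and those of members named for it, are a description. The disease-associated list differed in 24 of 34 members. In that list 15 genes were called higher in aged than in young libraries and 0 lower, against 108 and 115 of all 3792 genes. The direction of the 15 was opposite to that of the members called in the labelled deltaMG libraries. Axl had a log2 fold change of -2.31 here and 1.67 with age, a difference of -3.98 ± 0.34 (SE) (limma adjusted p = 4.47e-06). Apoe had -1.52 here and 1.19 with age, a difference of -2.71 (limma adjusted p = 1.36e-05). Of the 11 cathepsins 0 were called with age by limma, with 3 at an unadjusted p under 0.05, and Ctss had a difference of -1.58 (limma adjusted p = 0.00288). Cx3cr1 was lower with age, at -0.63 (limma adjusted p = 0.0113), and differed by 2.05 (limma adjusted p = 1.83e-05). Of the 14 neutrophil markers limma called 0 for the difference between the 2 effects, also at an unadjusted p under 0.05. Age and sex were mixed in the other experiment, where the young libraries held Xist and the aged ones Y-linked transcripts.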

How the data were processed

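RNA from MACS-isolated microglia was amplified with the NuGEN Ovation RNA-Seq System V2 and fragmented for Ion Torrent sequencing, per the labels' protocols. The authors deposited 1 table of 24453 genes by 10 libraries in RPM. That unit was inferred from the values: each cell holds a constant of 0.0001, and low values are multiples of a step set by the library. The submitters' processing notes name GRCm38, mm10 and FastQC. The aligner, counter, annotation, strand setting and normalization were not given in the sources used here. Between 94.3% and 94.6% of low values in the 4 libraries lay within 0.05 of a whole number of reads, so no count model was used.

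Values were tested as log2(RPM + 1) with limma 3.58.1 in R 4.3.3, with 4 groups over 10 libraries, 6 residual degrees of freedom, a mean-dependent prior and Benjamini-Hochberg adjustment over 3792 genes. Each fold change is on that scale and so understates the change of low genes, and RPM values are not comparable between genes of different length. The neutrophil score is the mean log2(RPM + 1) of the 14 tested neutrophil markers. It did not overlap between the labelled groups, so calls kept or lost with it cannot separate these cells from the label. The code was tested on simulated data. Named genes were Rab7, Cx3cr1, the 12 largest rises and falls that were called, at 50 RPM or more on average, up to 4 members of each list with the smallest p, and those differing most from the ageing effect. Others were named after their values were seen. Members and lists were chosen with earlier results of these data known. Gene positions come from RefSeq GRCm38.p6, to which 3652 tested symbols matched directly and 128 by synonym. Figures were drawn with matplotlib 3.10.9. Alternatives covered the samples fitted, filter, pseudocount, scaling, variance model, library weights, replicate block, neutrophil score, threshold and each library left out. A called member of the homeostatic list is not reported here by name.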

Additional observations from a re-analysis of the deposited data

How the results depend on the processing

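The counts of genes moved with the processing, and the cause was not tested. The 55 genes called higher in the labelled deltaMG libraries became 226 when the 4 libraries were fitted alone, 35 with a minimum of 50 RPM, 30 with no filter, 103 with median-of-ratios rescaling, 108 with quantile normalization, 88 with equal totals, 151 with array weights, 122 at an adjusted p under 0.1 and 32 with a fold of at least 2. They ranged from 11 to 145 when a library was left out. The 119 called lower became 250 in the 4 libraries alone, 63 with a minimum of 50 RPM, 36 with no filter, 189 with array weights, 180 at an adjusted p under 0.1 and 60 with a fold of at least 2, and ranged from 29 to 157 when a library was left out. The 190 genes that differed from the ageing effect became 110 with a minimum of 50 RPM, 86 with no filter, 324 with array weights, 431 with the neutrophil score as covariate and 341 at an adjusted p under 0.1, and ranged from 73 to 251 when a library was left out. Other alternatives kept the 3 counts within 1.5 times. Same-numbered replicates of the labelled groups deviated together only weakly (correlation 0.0901), and the numbers were not taken to pair the samples. With 2 libraries a group both labelled pairs must give the same value, so this is a single check. With the replicate number as a block 20 genes were called higher, 62 lower and 94 differed from the ageing effect. Over 101 results for named genes and every alternative, 2270 values kept their direction and side of the threshold, 317 were no longer past it, 87 newly passed and 6 changed sign. The sign changes were to -0.21 for Rab7, -0.51 for Mki67 and -0.077 for Ccnd1 with the neutrophil score, and others came from leaving out a library, where Ccnd1 ranged from -0.14 to 0.22, Entpd1 from -0.33 to 0.014 and Xist from -0.060 to 0.55. None of these 6 was called in the reported fit. With 2 libraries a group, the depth of 1507824 to 1773314 reads in listed genes left 20661 of 24453 genes under the minimum, and differences in those were not examined.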
